A study of Rattus norvegicus with 44 samples.

Results

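The newborn kidney cortex of rats labelled Homo was compared with that of rats labelled WT, at the gene Xdh. All animals were male pups on postnatal day 0 (PND0), taken from whole litters, and 1 kidney per animal was frozen for RNA. The labels give the genotype as WT, Het or Homo alone, and no source used here states the kind of Xdh allele, the strain or the litter of each pup. The comparison rests on 4 Homo and 4 WT libraries of poly-A RNA, out of 44 libraries at 4 ages in the series, and 3 PND0 Het libraries are set beside them. Genes were taken where at least 3 of these 8 libraries reached 1 FPKM (fragments scaled by gene length and by the size of the library), which 14394 of 32545 genes did. The 8 libraries held 12686228 to 20895970 reads counted on genes.

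Xanthine dehydrogenase, the product of Xdh, carries out the last steps of purine breakdown: it turns hypoxanthine into xanthine and xanthine into urate, and in its oxidase form it passes electrons to oxygen and makes superoxide and hydrogen peroxide. The rat kidney is unfinished at birth. Nephrons are still being made from a pool of progenitor cells in the cap mesenchyme, which carry the transcription regulators Six2 and Cited1, while the proximal tubules of earlier nephrons take up their adult work of reabsorption and metabolism. The series title places Xdh in the maturation of the kidney, and the newborn comparison shows where the genotypes stand before most of that maturation.

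Xdh itself did not follow the Homo label. Its level was 0.727 FPKM in Homo replicate 1 and 0.649 in Homo replicate 2, from 65 and 68 reads. It was 11.7 FPKM in Homo replicate 3 and 22.5 in Homo replicate 4, from 836 and 1761 reads. In WT the levels were 2.29, 3.69, 3.78 and 1.60 FPKM. Replicates 1 and 2 thus lay below every WT library and replicates 3 and 4 above every WT library. The Het libraries also lay far apart, at 1.87, 26.8 and 1.75 FPKM. The mean level was 8.89 ± 10.5 FPKM (SD, n = 4) in the libraries labelled Homo and 2.84 ± 1.07 (SD, n = 4) in WT. The difference of 0.54 on the log2(FPKM + 1) scale had a two-sided exact permutation p of 0.629. It was -0.17 without Homo replicate 4, and -1.14 with Homo replicates 3 and 4 set aside, a value given as a description. Reads of a gene show RNA, not enzyme, and the sources used here do not say which stretch of Xdh the allele removes or alters, so the level alone does not give a genotype. Every statement below is therefore about libraries labelled Homo, and each result is given for replicates 1 and 2 and for replicates 3 and 4. These pairs also differ in the animal numbers of their titles, LDP148 and LDP149 against LDP21 and LDP22. The WT titles are LDP130, LDP131, LDP138 and LDP161, and the Het titles LDP20, LDP23 and LDP42. The labels do not say what the numbers stand for. A difference of replicates 3 and 4 from WT or from replicates 1 and 2 cannot be told apart from one that goes with these numbers. The pairs were formed with their Xdh levels known, so the difference of Xdh between them is a description and no p-value is given for it. The counts of genes called between the pairs, and in replicates 3 and 4 against WT, include Xdh.

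**Figure D1:**
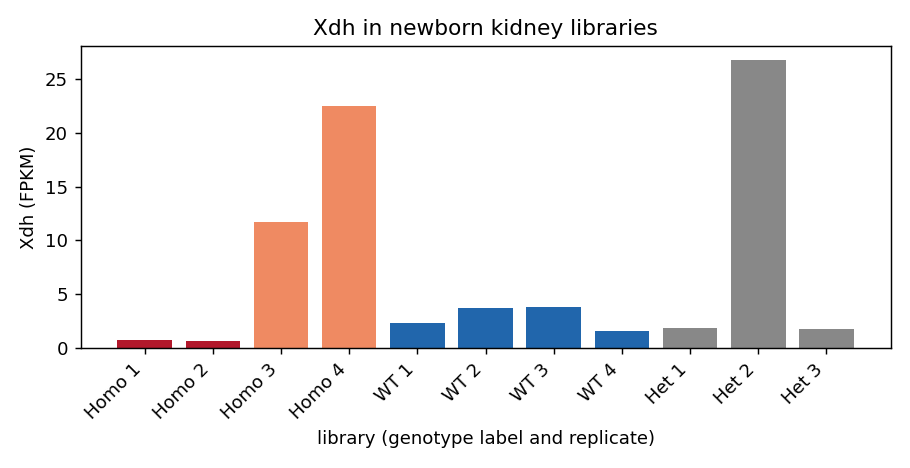
Xdh level (vertical axis, FPKM) in each of the 11 newborn libraries (horizontal axis, genotype label and replicate), 1 bar per library and no error bars. Homo replicates 1 and 2 lie below all 4 WT libraries, while Homo replicates 3 and 4 and Het replicate 2 lie above them.

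In the deposited table Xdh is the protein-coding gene ENSRNOG00000007081 on chromosome 6, from 25149235 to 25211494 on the minus strand, in a genome build that no source used here names. The promoter is shown because the level of this gene varied over more than an order of magnitude between newborns. RefSeq places the 250 bases before its start at chr6:27282069-27282318 of GRCr8, plus strand of that build, and the capitals mark the match to the motif CCAAT, found on the opposite strand.
Xdh promoter: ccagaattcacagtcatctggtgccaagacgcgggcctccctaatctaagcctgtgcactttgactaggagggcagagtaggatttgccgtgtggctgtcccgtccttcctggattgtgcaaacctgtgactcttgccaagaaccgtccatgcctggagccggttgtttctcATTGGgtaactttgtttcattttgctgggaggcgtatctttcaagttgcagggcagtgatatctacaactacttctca
CCAAT, searched on both strands, is in 34.02% of 33469 rat promoters of the same length. TATAAA, searched likewise, is in 12.93% and not in this window.

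Between the 4 libraries labelled Homo and the 4 WT libraries, proximal tubule genes such as Gpx3, Aqp7 and Cyp24a1 rose, and nephron progenitor genes such as Six2, Cited1 and Mn1 fell. In the limma model of all 44 libraries, 90 of 14394 genes were called at a Benjamini-Hochberg adjusted p under 0.05 (0.625%). Of these, 33 were higher (0.229%) and 57 lower (0.396%) in Homo. In 77 of the 90 the ranges of both groups did not overlap, 29 higher and 48 lower. Over all genes tested, 474 were higher in all 4 Homo libraries than in all 4 WT libraries (3.29%) and 462 lower in all 4 (3.21%). The largest differences named below were taken from called genes without overlap, so their lack of overlap is a criterion and not a further result. These shares stand beside each list count between Homo and WT below. On values rescaled to TPM the split was 27 higher and 173 lower, and that scaling moved the median of all genes from 0.00 to -0.07 on the log2 scale.

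These calls rest on a spread that the model shares between ages. The median SD within groups on the log2 scale was 0.187 at PND0 and 0.131, 0.154 and 0.150 at PND5, PND15 and PND21. With a weight per age, with the PND0 libraries alone or with the 8 libraries alone, limma called 0 genes, against 1419, 1300 and 1401 genes at an unadjusted p under 0.05; voom on the recovered reads, over all ages, called 115. When Homo replicate 4 was left out the count was 2. Leaving out Homo replicate 3 gave 38 and Homo replicate 1 gave 196. Among the WT libraries, leaving out replicate 2 gave 12, replicate 3 gave 35 and replicate 4 gave 187. Aqp7 was the 1 gene called in all 8 fits that left out a library. The level of each library is therefore given for the genes described. The limma p-values printed below measure the spread between animals of all ages in the model, not that of the newborns alone.

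The steepest rise was that of Cyp24a1, the enzyme that inactivates vitamin D. It was at 30.5, 23.7, 19.2 and 30.8 FPKM in Homo replicates 1 to 4, and at 1.86, 1.24, 2.81 and 5.999 in WT. All 4 Homo libraries lay above all WT libraries, and the mean was 8.75-fold higher. The log2 difference was 2.88 ± 0.70 (SE; limma, adjusted p = 0.0479), with 2.95 in replicates 1 and 2 and 2.81 in replicates 3 and 4. Cyp24a1 was not called with a pseudocount of 0.1 or with no filter (limma, adjusted p = 0.0546 and 0.0599), nor with voom (adjusted p = 0.0552). Of the 8 fits that left out a library, only that without WT replicate 4 called it. Among the Het libraries, Cyp24a1 was at 5.08, 78.6 and 6.37 FPKM, and the high value is that of the library with high Xdh. Cyp27b1, which makes active vitamin D, was not called. Its levels were 0.920, 1.16, 3.01 and 9.05 FPKM in Homo and 4.04, 5.58, 1.51 and 1.56 in WT, and the ranges overlapped.

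Gpx3, the secreted glutathione peroxidase that the proximal tubule makes for the plasma, was among the most abundant of the called genes. It was at 1785, 2021, 1723 and 2107 FPKM in Homo and 1049, 1206, 1078 and 1412 in WT. No Homo library reached down to the WT range. The mean was 1.61-fold higher, and the log2 difference of 0.69 ± 0.13 (SE; limma, adjusted p = 0.0193) was the same to 2 decimals, 0.69, in both pairs of Homo libraries. Het libraries were at 1344, 1595 and 1154 FPKM, between or within the ranges of the other genotypes. RefSeq places its promoter at chr10:39529085-39529334 of GRCr8, plus strand, shown because Gpx3 moved alike in both pairs. Neither TATAAA nor CCAAT is in this window.
Gpx3 promoter: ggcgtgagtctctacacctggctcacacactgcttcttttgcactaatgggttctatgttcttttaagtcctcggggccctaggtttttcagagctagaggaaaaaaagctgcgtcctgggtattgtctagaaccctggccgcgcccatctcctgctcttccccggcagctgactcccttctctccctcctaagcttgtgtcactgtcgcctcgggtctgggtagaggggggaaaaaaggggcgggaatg

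Aqp7, a channel for water and glycerol in the late proximal tubule, was at 36.0, 40.1, 33.8 and 33.8 FPKM in Homo and 20.6, 21.3, 21.9 and 27.8 in WT. The groups did not overlap. Het replicates 1 and 2 lay between them at 29.6 and 31.7 FPKM, and Het replicate 3, at 27.2, lay within the WT range. The log2 difference was 0.64 ± 0.11 (SE; limma, adjusted p = 0.0122), with 0.72 in replicates 1 and 2 and 0.55 in replicates 3 and 4. Fat cells also carry Aqp7. The fat cell genes Adipoq and Plin1 were at 6.31 and 5.52 FPKM in Homo replicate 1, 7.97 and 5.45 in Homo replicate 2, and 3.19 and 1.83 in WT replicate 4. In the other 5 libraries Adipoq was at 0.230 to 0.651 FPKM. Among those 5, Aqp7 was at 33.8 FPKM in both Homo libraries and at 20.6 to 21.9 in the 3 WT libraries. The summed fat tissue list was 96.8 and 119 FPKM in those Homo libraries and 38.3, 51.4 and 56.6 in those WT libraries, and its part in the difference of Aqp7 was not tested.

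Cryl1, a crystallin-like enzyme of sugar metabolism, was at 58.2, 65.7, 58.8 and 67.4 FPKM in Homo and 38.9, 41.7, 45.3 and 47.1 in WT (limma, adjusted p = 0.0411). Its log2 difference was 0.51 in replicates 1 and 2 and 0.53 in replicates 3 and 4. Together with Gpx3, Cyp24a1 and Ttc36, the last named outside the naming rule after its values were seen, it made up the called members of the proximal tubule metabolism list. Of 32 members tested, 4 rose and 0 fell, 28 had a positive difference, and 8 lay higher in all 4 Homo libraries. Over all genes tested, 0.229% rose and 3.29% lay higher in all 4. The list's median log2 difference was 0.37, against 0.00 over all genes tested, with 0.33 in replicates 1 and 2 and 0.49 in replicates 3 and 4. The summed level of the list ran from 8432 to 10183 FPKM in Homo and from 6099 to 7439 in WT. In bulk RNA, more cells of a type and more RNA per cell cannot be told apart.

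The transporters and endocytic receptors of the proximal tubule gave a smaller difference. Of 30 members tested, 1 rose (Aqp7), 0 fell and 26 had a positive difference, with a median of 0.26 on the log2 scale. The brush border list, with 18 tested and 1 called, had a median of 0.05. It was 0.17 in replicates 1 and 2 and -0.01 in replicates 3 and 4. A lean upward was not confined to proximal lists. Medians were 0.16 for intercalated cells, 0.15 for principal cells, 0.10 for the distal and connecting tubule and -0.01 for the loop of Henle, with 0 called in each. The nuclear genes of oxidative phosphorylation had 27 members tested, none called, 26 with a positive difference and a median of 0.12. The mitochondrial genome took 7.48, 7.32, 7.25 and 7.18% of the reads in Homo and 6.28, 5.81, 6.66 and 5.83% in WT. All 4 Homo libraries exceeded all WT libraries, by 1.16 percentage points in the mean (two-sided exact permutation p = 0.0286, the smallest that 4 against 4 libraries allow). The Het libraries had a mean of 7.60 ± 0.895% (SD, n = 3).

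Gsta2, a glutathione transferase, was at 8.61, 13.3, 17.7 and 21.7 FPKM in Homo and 6.45, 6.28, 7.48 and 6.45 in WT (limma, adjusted p = 0.0480). The log2 difference was 0.61 in replicates 1 and 2 and 1.43 in replicates 3 and 4. Mgst3, a microsomal transferase of the same chemistry, was at 171, 187, 148 and 135 FPKM against 120, 76.8, 84.6 and 138, and Homo replicate 4 lay inside the WT range. Tpmt, which methylates thiopurines, was at 27.2, 27.6, 35.2 and 41.0 FPKM against 20.5, 20.7, 21.1 and 23.2, with no overlap. Of 23 tested members of the glutathione and NRF2 list, 2 rose (Gsta2 and Mgst3) and 0 fell, with a median of 0.17. Reads of Gsta2 may be shared with close copies in its family.

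Ctsl, a lysosomal protease, was at 465, 576, 580 and 627 FPKM in Homo and 314, 362, 327 and 407 in WT, without overlap. Its difference was 0.56 in replicates 1 and 2 and 0.78 in replicates 3 and 4 on the log2 scale. Clk1, a kinase of splicing factors, was at 48.2, 68.6, 85.8 and 120 FPKM against 40.3, 39.1, 43.0 and 33.0. Its log2 difference of 0.96 ± 0.21 (SE; limma, adjusted p = 0.0303) was made up of 0.56 in the pair with low Xdh and 1.37 in the pair with high Xdh. Cdhr5, a cadherin of the brush border, had 20.2, 25.1, 29.0 and 35.9 FPKM against 18.5, 18.6, 17.1 and 20.1, so that Homo replicate 1 exceeded WT replicate 4 by little. The remaining genes named as higher were Clec2g, Btc (a ligand of the EGF receptor), Gatsl3, Tmem37 and Pold4 (a subunit of DNA polymerase delta). Their log2 differences were 0.52 to 0.91, and all 4 Homo libraries lay above WT in each, as the naming rule required. In that order, the differences were 0.45, 0.29, 0.37, 0.26 and 0.45 in replicates 1 and 2. In replicates 3 and 4 they were 1.37, 1.04, 0.87, 0.80 and 0.60. Clec2g, Btc and Tmem37 were also called between the pairs (limma, adjusted p = 0.0399, 0.0261 and 0.0390), and Gatsl3 and Pold4 were not.

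**Figure D2:**
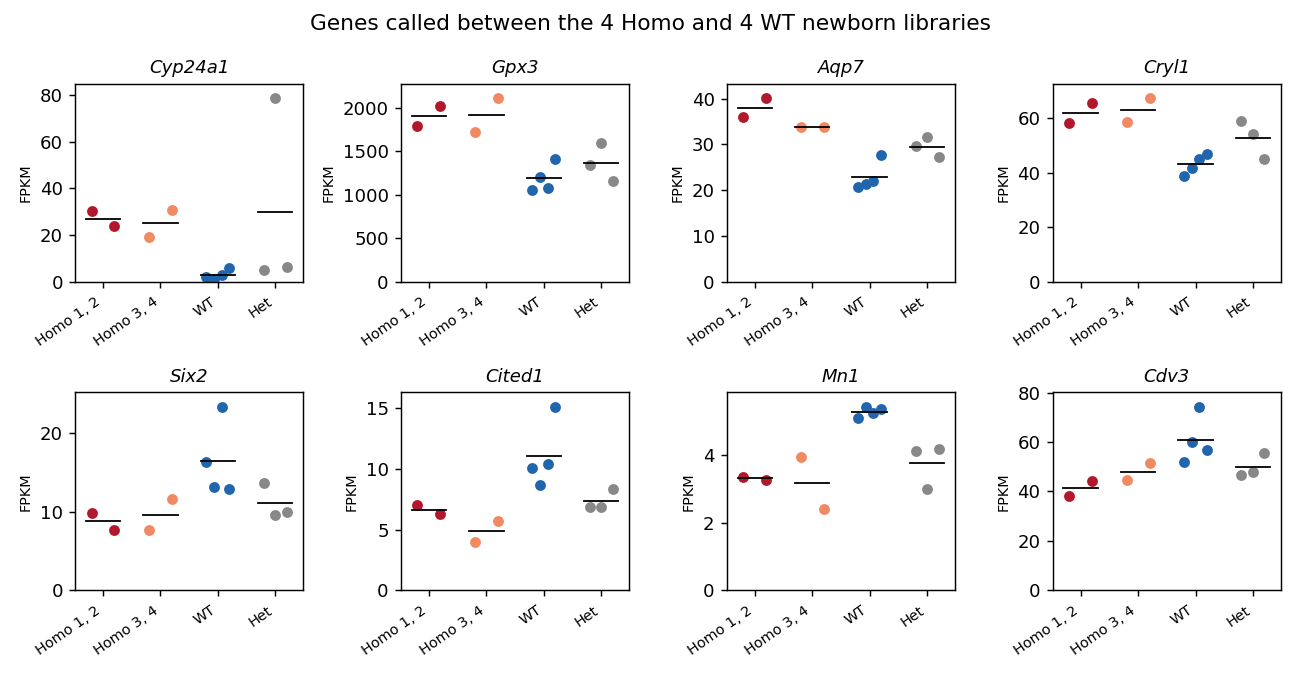
Level (vertical axes, FPKM) of 8 genes called between the Homo and WT newborn libraries, with 1 point per library, a bar at each mean, and libraries grouped as Homo replicates 1 and 2, Homo replicates 3 and 4, WT and Het. Cyp24a1, Gpx3, Aqp7 and Cryl1 lie above WT and Six2, Cited1, Mn1 and Cdv3 below WT in both pairs of Homo libraries; 1 Het library holds Cyp24a1 at 78.6 FPKM.

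Six2, which keeps nephron progenitors from differentiating, was at 9.86, 7.70, 7.60 and 11.5 FPKM in Homo and 16.3, 13.2, 23.2 and 12.8 in WT. The ranges did not overlap, though Homo replicate 4 and WT replicate 4 were close. The log2 difference was -0.75 ± 0.17 (SE; limma, adjusted p = 0.0411), with -0.80 in replicates 1 and 2 and -0.70 in replicates 3 and 4. Het libraries were at 13.6, 9.62 and 9.89 FPKM. Cited1, a coactivator that marks the least committed progenitors, was at 7.02, 6.29, 4.02 and 5.73 FPKM in Homo and 10.1, 8.64, 10.4 and 15.1 in WT. These ranges did not overlap either, and the difference was -0.83 ± 0.17 (SE; limma, adjusted p = 0.0202), with -0.63 in replicates 1 and 2 and -1.03 in replicates 3 and 4.

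The promoters of both progenitor regulators are shown because the genes fell together; the capitals mark TATAAA, which Cited1 has and Six2 does not, and neither holds CCAAT. RefSeq places them at chr6:14727808-14728057, plus strand, and chrX:71395024-71395273, minus strand, of GRCr8.
Six2 promoter: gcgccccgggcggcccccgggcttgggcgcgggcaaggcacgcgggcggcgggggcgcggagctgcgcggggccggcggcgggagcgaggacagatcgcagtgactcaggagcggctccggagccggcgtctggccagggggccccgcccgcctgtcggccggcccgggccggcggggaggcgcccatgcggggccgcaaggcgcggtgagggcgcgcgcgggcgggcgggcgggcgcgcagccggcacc
Cited1 promoter: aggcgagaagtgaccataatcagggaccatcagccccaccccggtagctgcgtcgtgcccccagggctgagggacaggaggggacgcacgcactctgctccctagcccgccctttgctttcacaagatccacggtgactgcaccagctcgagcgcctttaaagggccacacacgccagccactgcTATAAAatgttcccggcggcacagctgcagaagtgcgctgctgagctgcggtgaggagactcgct

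Of 24 nephron progenitor genes tested, 0 rose and 5 fell, and 9 lay lower in all 4 Homo libraries. Over all genes tested, 0.396% fell and 3.21% lay lower in all 4. The list's median log2 difference was -0.32, against 0.00 over all genes tested, with -0.29 in replicates 1 and 2 and -0.38 in replicates 3 and 4. Besides Six2 and Cited1, the genes that fell were Fgf20, Mn1 and Frem2. Fgf20, a growth factor that progenitors make to keep themselves alive, was at 0.832, 0.995, 1.35 and 0.951 FPKM in Homo and 1.55, 1.56, 2.50 and 1.60 in WT. Mn1, a transcriptional coregulator, was at 3.37, 3.26, 3.95 and 2.41 FPKM against 5.11, 5.43, 5.25 and 5.37. Both were lower in all 4 Homo libraries. Fgf20 was under 1 FPKM in Homo replicates 1, 2 and 4, so it passed the filter through the WT libraries. Its log2 difference between Homo and WT was 0 at PND5, PND15 and PND21, and the spread behind its call includes those ages. Six2 fell by 2.79 in Het between PND0 and PND5, and its spread is shared with the older ages likewise. With a pseudocount of 0.1, Six2, Cited1, Fgf20 and Frem2 were not called and Mn1 was. Wt1 and Gdnf, the latter the signal from the cap to the ureteric bud, also lay lower in all 4, at -0.51 and -0.63 on the log2 scale, and were not called; they are named after their values were seen.

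Frem2 belongs to the FRAS/FREM complex, which joins epithelium to basement membrane. It was at 9.54, 10.8, 11.7 and 10.96 FPKM in Homo and 14.5, 15.0, 16.1 and 15.8 in WT, with no overlap and a log2 difference of -0.55 in replicates 1 and 2 and -0.40 in replicates 3 and 4. In the list of that complex and of basement membrane, 21 members were tested, 0 rose, 1 fell and 19 had a negative difference, with a median of -0.21. Lama1 lay lower in all 4 Homo libraries, at -0.41, and was not called. Notch2, the receptor that drives proximal fate in the forming nephron, was at 13.5, 13.6, 14.4 and 13.7 FPKM against 18.1, 20.1, 23.5 and 19.6 (limma, adjusted p = 0.0193). Its Homo values spanned less than 1 FPKM and lay below all WT values, and the log2 difference was -0.55 and -0.50 in the pairs. In the early nephron list, from renal vesicle to S-shaped body, 25 members were tested, 0 rose and 1 fell, and the summed level was 584 to 634 FPKM in Homo and 645 to 725 in WT.

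The other genes named as lower belong to no list of 1 cell type. Cdv3, a gene of poorly known function, was at 38.3, 44.4, 44.5 and 51.4 FPKM in Homo and 52.0, 59.9, 74.1 and 56.7 in WT, and Homo replicate 4 nearly met WT replicate 1. Klf10, a transcription factor induced by TGF-beta, was at 19.96, 16.9, 16.9 and 7.64 FPKM against 29.1, 24.5, 31.5 and 28.4. Syt6, a synaptotagmin, was at 3.63, 3.13, 1.24 and 1.95 FPKM against 4.61, 5.38, 7.64 and 4.23. In Syt6 the difference was -0.54 in replicates 1 and 2 and -1.30 in replicates 3 and 4. Cdh3 (a cadherin), Kif26b (a kinesin needed for the cap to adhere), Has2 (a hyaluronan synthase) and Siah1 (a ubiquitin ligase) were also lower. Their log2 differences were -0.56, -0.52, -0.49 and -0.44, all without overlap, as the naming rule required. They were -0.39, -0.41, -0.39 and -0.34 in replicates 1 and 2, and -0.73, -0.64, -0.59 and -0.55 in replicates 3 and 4. Hoxd9, a patterning gene, was at 46.4, 41.1, 39.6 and 41.1 FPKM against 62.5, 63.3, 65.3 and 45.2, so that Homo replicate 1 met the WT range.

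All 33 higher genes had a positive difference in both pairs of Homo libraries and all 57 lower genes a negative one, a direction that their choice from the 4 libraries partly fixes. Their medians were 0.43 in replicates 1 and 2 and 0.63 in replicates 3 and 4 for the higher genes, and -0.34 and -0.45 for the lower genes. Tested apart against the same WT libraries, replicates 1 and 2 gave 17 called genes (0.118%), 10 higher and 7 lower. Replicates 3 and 4 gave 1423 (9.89%), 726 higher and 697 lower, or 405 higher and 1348 lower on TPM. The genes called in both were 3: Aqp7, Cdv3 and a mitochondrial transfer RNA gene that the table lists with no gene symbol. The last was at 47.7, 18.0, 69.3 and 28.6 FPKM in Homo and 88.6, 137, 89.0 and 68.7 in WT, and overlapped. With a weight per age, replicates 1 and 2 gave 1 called gene and replicates 3 and 4 gave 536; with the 8 libraries alone the counts were 0 and 557.

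Replicates 3 and 4 stood apart from replicates 1 and 2 in far more genes than those that divided the genotypes. Between the pairs, 422 genes were higher (2.93%) and 401 lower (2.79%) in replicates 3 and 4; on TPM the split was 280 and 512. The count of 823 was 153 with a weight per age, 91 higher and 62 lower. It was 273 with the 8 libraries alone, 126 higher and 147 lower. With the PND0 libraries alone it was 0, and 2125 genes had an unadjusted p under 0.05 in limma. The shares of 2.93% and 2.79% stand beside each list count between the pairs below. The root mean square log2 difference was 0.30 between Homo replicates 1 and 2 and 0.43 between replicates 3 and 4. Across the pairs it was 0.43 to 0.52. Homo replicate 3 was 0.37 from Het replicate 2 and Homo replicate 4 was 0.41 from it, nearer than either lay to any other of the 11 libraries. The title of Het replicate 2 is LDP23, and those of Homo replicates 3 and 4 are LDP21 and LDP22.

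**Figure D3:**
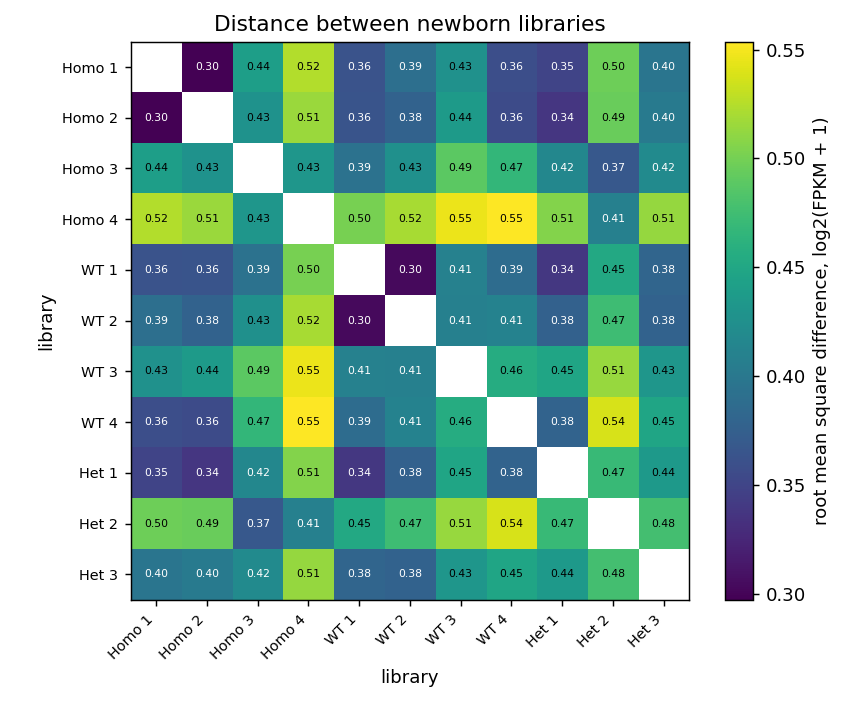
Root mean square difference of log2(FPKM + 1) over 14394 genes (colour and number) between each pair of the 11 newborn libraries (both axes). Homo replicates 1 and 2 are 0.30 apart, Homo replicates 3 and 4 lie nearest to Het replicate 2, and Homo replicate 4 is 0.50 to 0.55 from the WT libraries.

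Targets of the glucocorticoid receptor, through which the stress hormone corticosterone acts, were higher in replicates 3 and 4. Zbtb16, a transcription factor that glucocorticoid strongly induces, was at 0.142, 0.0519, 10.1 and 16.2 FPKM in Homo replicates 1 to 4. It was at 0.251, 0.354, 6.58 and 0.473 FPKM in WT and at 0.0990, 10.5 and 0.191 in Het. Homo replicates 3 and 4, WT replicate 3 and Het replicate 2 were high and the other 7 libraries were under 0.5 FPKM. The log2 difference between the Homo pairs was 3.66 ± 0.68 (SE, limma), given as a description. Of the 8 libraries only Homo replicates 3 and 4 and WT replicate 3 reached 1 FPKM. Zbtb16 thus passed the filter through the libraries where it was high. Of 20 entries of the list tested, 9 rose and 0 fell between the pairs, with a median of 1.09 against -0.01 over all genes. With a weight per age 3 rose, and with the 8 libraries alone 4 rose.

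Other members of that list, named after their values were seen, behaved alike. Fkbp5, a chaperone partner of the receptor, was at 12.6, 14.3, 49.8 and 99.8 FPKM in Homo and 14.0, 16.5, 29.3 and 16.8 in WT. Per1, a clock gene, was at 9.57, 7.35, 39.5 and 53.3 FPKM against 7.04, 6.43, 39.7 and 9.66, so WT replicate 3 matched Homo replicate 3. Klf9 was at 9.01, 8.85, 23.0 and 37.7 FPKM against 8.07, 8.71, 21.0 and 10.4. In each of these WT replicate 3 was the highest of the WT libraries. Against the same WT libraries, the list's median was -0.21 in replicates 1 and 2 and 1.21 in replicates 3 and 4. The list was written after earlier results of these libraries had shown such genes, so its direction is no independent evidence.

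Igfbp1, a secreted binder of insulin-like growth factors that rises in fasting and low oxygen, was at 9.99, 7.88, 49.7 and 159 FPKM in Homo. In WT it was at 10.4, 7.21, 23.1 and 10.2, and in Het at 11.1, 103 and 9.76 FPKM. Hif3a, a hypoxia-inducible factor subunit, was at 4.33, 5.85, 36.1 and 67.8 FPKM against 6.07, 7.04, 18.4 and 5.09. Fam46b was at 0.900, 0.787, 9.98 and 16.8 FPKM against 1.52, 1.10, 6.77 and 1.06. The same 4 libraries, Homo replicates 3 and 4, WT replicate 3 and Het replicate 2, held the highest values in these 3 genes. Of 26 glycolysis and hypoxia genes tested, 4 rose (Adm, Ndrg1, Bnip3 and Slc2a1) and 0 fell between the pairs, with a median of 0.24; 1 rose with a weight per age and 1 with the 8 libraries alone. Of 29 immediate early and stress genes, 7 rose and 2 fell, with a median of 0.57; with a weight per age 3 rose and 0 fell, and with the 8 libraries alone 5 rose and 0 fell. Hmox1, which degrades haem, was at 23.2, 19.6, 109 and 239 FPKM in Homo and 128, 316, 129 and 36.0 in WT, so there replicates 1 and 2 were the ones below the WT range.

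Cell cycle genes were lower in replicates 3 and 4. Of 34 tested, 15 fell and 0 rose between the pairs, with a median log2 difference of -0.70. With a weight per age 3 fell, and with the 8 libraries alone 16 fell. Pcna, the clamp of the replication fork, was at 152, 142, 91.9 and 78.7 FPKM in Homo and 112, 120, 147 and 135 in WT. Mcm5, a subunit of the replicative helicase, was at 27.7, 26.5, 13.7 and 12.3 FPKM against 21.3, 25.9, 25.9 and 27.4. Both genes, named after their values were seen, were below all WT libraries in replicates 3 and 4. Against the same WT libraries, the list's median was 0.10 in replicates 1 and 2 and -0.61 in replicates 3 and 4. In the 4 libraries together 0 of the 34 were called, all 34 with a negative difference. Of the 24 nephron progenitor genes, 0 were called in replicates 1 and 2 against WT, 1 rose and 7 fell in replicates 3 and 4 against WT, and between the pairs 1 rose (Lypd1) and 0 fell.

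**Figure D4:**
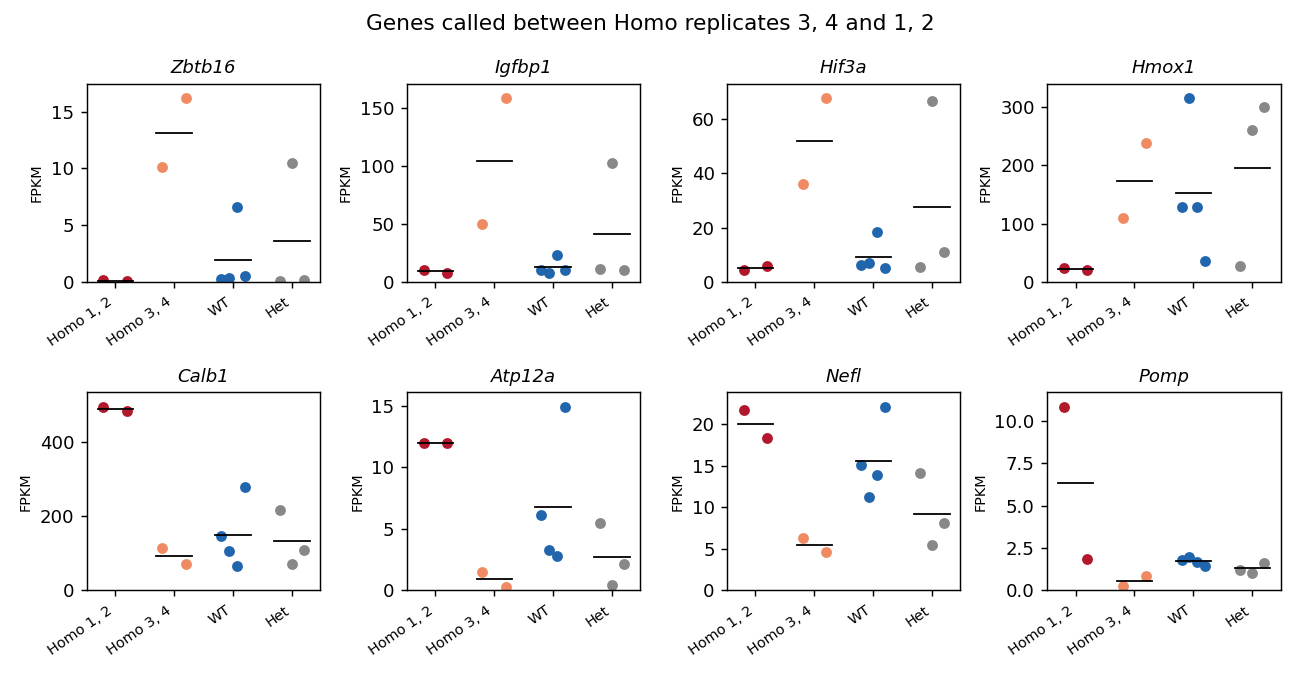
Level (vertical axes, FPKM) of 8 genes called between Homo replicates 3 and 4 and Homo replicates 1 and 2, with 1 point per library, a bar at each mean, and libraries grouped as Homo replicates 1 and 2, Homo replicates 3 and 4, WT and Het. Zbtb16, Igfbp1 and Hif3a are high in Homo replicates 3 and 4, in 1 WT and in 1 Het library, while Calb1, at 494 and 485 FPKM in Homo replicates 1 and 2, is at 114 and 70.0 in replicates 3 and 4.

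Calb1, the calcium buffer of the distal and connecting tubule and a target of vitamin D, was at 494, 485, 114 and 70.0 FPKM in Homo and 145, 106, 66.7 and 278 in WT. It was highest in the pair with low Xdh, and the difference between the pairs was -2.44 ± 0.69 (SE; limma, adjusted p = 0.0328). Of 14 genes of the distal convoluted and connecting tubule tested, 0 rose and 3 fell between the pairs; the others that fell were Slc8a1 and Slc12a3. Of the 14, 0 fell with a weight per age and 1 with the 8 libraries alone. Atp12a, a proton pump, was at 12.002, 11.96, 1.48 and 0.301 FPKM against 6.11, 3.25, 2.80 and 14.9 in WT. Nefl (a neurofilament), Dpt (a matrix protein), Timm8a2 and Pomp fell between the pairs by 1.71, 1.70, 1.96 and 1.91 on the log2 scale. Pomp rested on Homo replicate 1, at 10.8 FPKM, where the other 7 libraries held 0.283 to 1.98.

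Some proximal tubule enzymes also divided the pairs, in both directions. Of the 32 members of the proximal tubule metabolism list, 3 rose (Ass1, Acy3 and Agmat) and 4 fell (Gatm, Hao2, Miox and Calb1, the last a distal gene that the list holds as well). With a weight per age 0 rose and 2 fell, and with the 8 libraries alone 2 rose and 2 fell. Gatm, the first enzyme of creatine synthesis, was at 683, 867, 315 and 222 FPKM in Homo and 306, 371, 441 and 545 in WT. Ass1, which joins citrulline to aspartate in arginine synthesis, was at 304, 410, 644 and 1002 FPKM against 332, 425, 402 and 330. The libraries labelled Homo thus lay on both sides of WT in Gatm and above it in Ass1 only for replicates 3 and 4.

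Among 18 genes of purine breakdown and salvage tested, 0 were called between Homo and WT in limma, and 14 had a positive difference with a median of 0.09. Between the pairs Dck and Ada fell, and 0 rose apart from Xdh, whose levels were known when the pairs were formed. Of the 18, 1 fell with a weight per age and 0 with the 8 libraries alone. Dck, the kinase that salvages deoxynucleosides, was at 8.19, 9.98, 4.54 and 3.64 FPKM in Homo and 5.36, 6.65, 10.7 and 7.30 in WT. Ada, adenosine deaminase, was at 31.0, 27.5, 19.5 and 21.9 FPKM against 23.5, 26.2, 29.0 and 23.1. Pnp, which frees hypoxanthine from inosine and so feeds Xdh, was at 82.5, 80.7, 89.1 and 106 FPKM against 73.1, 68.7, 89.3 and 73.9, and the groups overlapped. Aprt, which salvages adenine, was at 237, 218, 224 and 243 FPKM against 207, 219, 248 and 216.

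**Figure D5:**
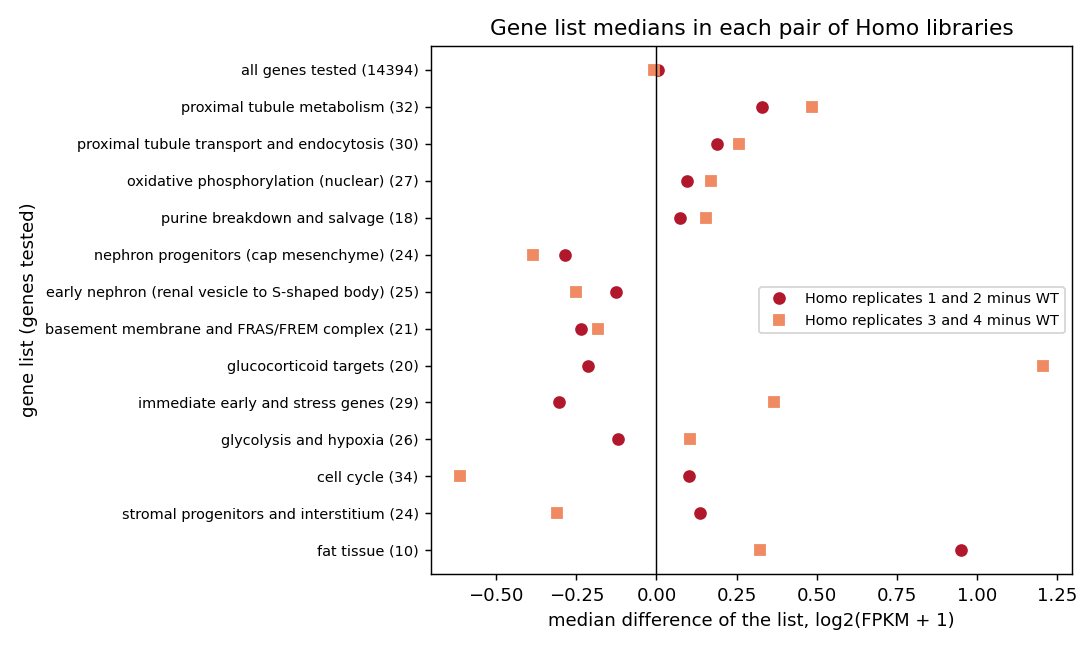
Median difference from WT on the log2(FPKM + 1) scale (horizontal axis) of the tested members of 13 gene lists and of all genes (vertical axis, number tested in brackets), for Homo replicates 1 and 2 (circles) and Homo replicates 3 and 4 (squares), which share the same WT libraries. The proximal tubule metabolism and transport lists and the progenitor list lie on the same side of 0 in both pairs. The glucocorticoid, immediate early, hypoxia, cell cycle and stromal lists lie on opposite sides. The brush border list is not drawn.

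Markers of other tissues differed between libraries and stand beside these results. The summed fat tissue list was 96.8 to 133 FPKM in Homo and 38.3 to 78.6 in WT; all 10 tested members had a positive difference and 0 were called. Red cell genes summed to 490 to 2962 FPKM in Homo and 747 to 920 in WT, and Hbb was at 2766 FPKM in Homo replicate 4 against 418 to 613 in the other Homo libraries. Stromal and interstitial genes summed to 1292 to 1695 FPKM in Homo and 1371 to 2081 in WT, and adrenal cortex genes to 60.1 to 75.4 and 63.4 to 77.4. WT replicate 4 stood apart in skeletal muscle genes, which summed to 116 FPKM there and 35.9 to 44.1 in the other 7 libraries, and in adrenal medulla genes, at 19.3 against 3.64 to 8.31. Without that library 187 genes were called between Homo and WT. The podocyte list, which marks glomeruli, summed to 685 to 823 FPKM in Homo and 752 to 844 in WT. The part of these tissues in the differences was not tested.

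The called genes were then read in comparisons outside the 8 libraries. The other libraries gave the model part of its spread, but not the difference between newborn Homo and WT. In Het kidneys between PND0 and PND5, 7.14% of all tested genes rose and 4.86% fell. Of the 33 genes higher in newborn Homo, 6 rose and 0 fell over those days; of the 57 lower genes, 12 fell and 1 rose. Gpx3, Aqp7 and Cryl1 rose by 1.32, 0.67 and 0.50 on the log2 scale, while Six2 and Cited1 fell by 2.79 and 0.74 (limma, adjusted p from 6.42e-13 to 0.0115). Of the 24 nephron progenitor genes 14 fell and 0 rose, and of the 30 proximal tubule transport genes 14 rose and 1 fell. Het libraries at PND0 include the 1 with high Xdh.

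At PND15 and PND21 the difference between Homo and WT was of the other sign for several of these genes. Of all tested genes, 15.9% were called between Homo and WT at PND15, and at PND21 17.0% were higher and 18.5% lower in Homo. Of the 33 genes higher in newborn Homo, 0 were higher and 6 lower at PND15, and 1 was higher and 14 lower at PND21. The share of all genes at PND15 is not split by direction here, and the 6 lower genes are near that share. Gpx3 was 0.69 higher at PND0 and differed by -0.64 at PND15 and -1.11 at PND21 on the log2 scale. Cryl1 differed by -0.49 and -0.99 at those ages and Aqp7 by -0.44 and -0.47. At PND5 the differences of Gpx3, Aqp7 and Cryl1 were -0.07, -0.08 and 0.00, none of them called. Of the 57 genes lower in newborn Homo, 1 was higher and 3 lower at PND15, and 9 were higher and 8 lower at PND21. Six2 differed by 0.08 and -0.03 at PND15 and PND21, neither of them called. Cited1 was lower in Homo at both ages, with log2 differences of -0.50 and -1.43 (limma, adjusted p = 0.0387 and 3.27e-07).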

How the data were processed

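RNA of kidney cortex was sequenced from poly-A libraries, and the unit of the table the authors deposited is FPKM, for every gene in each library. Per the submitters' processing notes, the tools were HISAT2 2.0.5, featureCounts 1.5.0-p3, fastp and StringTie 1.3.3b, and no source used here gives their roles or the genome build. Whether the libraries kept the strand is not stated, so overlapping antisense genes cannot be parted. FPKM times gene length gave whole reads within 0.01 in 100% of values above 0 in all 44 libraries, and these reads gave the depths, the mitochondrial share and an added count test (voom). How reads were divided between close gene copies is not stated.

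The labelled age and genotype put the samples into 12 groups, and replicates were numbered in record order. Each library was treated as 1 animal. Replicates of a group differed by more than counting error, which alone does not show that they are separate animals. The labels do not state litters. Genes with at least 1 FPKM in 3 or more of the 8 newborn Homo and WT libraries were tested in R 4.3.3 with limma 3.58.1 and statmod 1.5.0. The values were log2(FPKM + 1), a pseudocount of 1, and the model had 12 group means over all 44 libraries and trended, robust empirical Bayes. Folds on this scale understate the change of low genes. A second fit split the Homo group into replicates 1 and 2 and replicates 3 and 4. A gene was called where its p, adjusted by Benjamini and Hochberg, was under 0.05, and only called genes are said to rise or fall. Xdh and the mitochondrial share were tested with two-sided exact permutation tests. Fits were tested on simulated counts.

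The genes named are Xdh, Six2, Cited1, Gpx3 and Aqp7, among called genes that have a symbol, do not overlap and average 5 FPKM or more in the higher group the 12 largest differences each way, genes called in all 8 fits without 1 library, up to 3 called members per list, and the 6 largest per direction between the Homo pairs. Other list members were named after their values were seen. The 50 lists hold 1043 genes from general knowledge, of which 990 matched and 856 were tested. The members, lists, pairs and tests were chosen with earlier results of these data known. Alternatives were another pseudocount, other filters, TPM, median ratios, weights per library or age, voom, fewer libraries in the fit, and libraries left out. Promoter sequences are those of RefSeq (GRCr8); of the 6 genes looked up, 4 matched by symbol.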

Additional observations from a re-analysis of the deposited data

Results flagged for a closer look

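In 84 groups of 4 libraries (41 named genes and the mitochondrial share, in Homo and in WT), 10 held a library far from the other 3, by a gap beyond Dixon's critical value, which chance gives in about 1 of 20 groups. WT replicate 3 was that library in 6 of them: it was the highest of the WT libraries in Zbtb16 (6.58 FPKM), Hif3a (18.4 FPKM), Fam46b (6.77 FPKM), Siah1 (39.1 FPKM), Fgf20 (2.50 FPKM) and Gsta2 (7.48 FPKM). The first 3 of these genes were also high in Homo replicates 3 and 4. WT replicate 4 was the lowest WT library in Hoxd9, at 45.2 FPKM, and the highest in Dpt, at 7.64 FPKM, where the other WT libraries held 0.823 to 1.13. WT replicate 2 was the lowest in Tmem37, at 14.9 FPKM against 18.8 to 19.5. Homo replicate 1 was the highest in Pomp, at 10.8 FPKM.

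Xdh was also high outside the 8 libraries compared. Het replicate 2 held 26.8 FPKM, from 2243 reads, above the highest WT library at 3.78 FPKM.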

How the results depend on the processing

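The 90 genes called between Homo and WT numbered 49 with a pseudocount of 0.1, 55 with no filter, 57 with the filter over all 44 libraries, 200 on TPM and 609 with weights per library. They numbered 0 with weights per age, 0 with the PND0 libraries alone and 0 with the 8 libraries alone in limma, where 1419, 1300 and 1401 genes had an unadjusted p under 0.05, and 115 with voom. The count was 21 with Homo replicates 3 and 4 set aside, 6 of them among the 90, and 1322 with replicates 1 and 2 set aside, 81 of them among the 90. It ran from 2 to 196 over the fits that left out 1 library. Replicates 1 and 2 against WT gave 17 called genes, 11 on TPM, 40 with voom, 1 with weights per age, and 0 with the PND0 libraries or the 8 libraries alone, where 869 and 1071 had an unadjusted p under 0.05. Replicates 3 and 4 against WT gave 1423, 536 with weights per age, 557 with the 8 libraries alone and 0 with the PND0 libraries alone, where 2664 had an unadjusted p under 0.05. The pairs differed in 823 genes, 153 with weights per age, 273 with the 8 libraries alone and 0 with the PND0 libraries alone. The cause of these moves was not tested beyond the spread per age.

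The log2 difference of Xdh ran from -0.17 to 1.11 without 1 library and was -1.14 with Homo replicates 3 and 4 set aside. The mitochondrial difference ran from 1.05 to 1.33 percentage points without 1 library, with exact permutation p from 0.0286 to 0.0571. Of the 29 genes named from the comparison of the genotypes, none had a difference of the other sign under the 21 alternatives. That outcome was largely fixed beforehand. Most of the 29 were named for ranges without overlap, and weights per age, other filters and the PND0 libraries alone leave the difference unchanged. Of the 29, 27 stayed called on TPM, 24 with voom, 14 with a pseudocount of 0.1 and 14 with no filter. The number was 6 when WT replicate 2 or WT replicate 3 was left out and 2 when Homo replicate 4 was. With weights per age, the PND0 libraries or the 8 libraries alone, 0 stayed called. Of the 12 named between the pairs, which include Xdh as a description, 8 stayed called with weights per age, 4 with the 8 libraries alone and 0 with the PND0 libraries alone. With a pseudocount of 0.1 the adjusted p was 0.344 for Six2, 0.133 for Cited1 and 0.372 for Fgf20, within 0.00902 to 0.426, 0.00318 to 0.367 and 0.00677 to 0.489 over the alternatives of each in limma or voom. No paired analysis was possible because the labels do not state litters.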

Other observations

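Genes called between Homo and WT outside the naming rule, picked here after their values were seen, included further enzymes. Dpyd, the rate-limiting enzyme of pyrimidine breakdown, Ephx2, which hydrolyses lipid epoxides, and Slc22a18, a transporter, were higher by 0.62, 0.56 and 0.80 on the log2 scale (limma, adjusted p = 0.0202, 0.0411 and 0.0317). The lower genes included the chromatin remodellers Chd4 and Chd7, the histone chaperone subunits Ssrp1 and Supt16h, and the RNA binders Hnrnpu and Dhx9, each lower in Homo at an adjusted p under 0.05 in limma. In the list of RNA-binding kinases and splicing factors, 30 genes were tested, 1 rose (Clk1) and 0 fell, with a median of -0.09.

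Replicates 1 and 2 alone differed from WT in Aqp8, a water channel, at 0.0348 and 0.238 FPKM against 1.76, 2.70, 6.85 and 1.29 in WT and 1.65 and 1.43 in replicates 3 and 4 (log2 difference -1.70 ± 0.27, SE; limma, adjusted p = 0.00429). Nox4, an oxidase that makes hydrogen peroxide in the tubule, was at 13.9 and 17.0 FPKM in that pair, 8.31 and 8.09 in replicates 3 and 4, and 6.51, 5.84, 5.97 and 11.8 in WT (log2 difference 0.99 ± 0.19, SE; limma, adjusted p = 0.0203).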
